A study of Danio rerio with 15 samples.

Results

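The rab genes of the zebrafish embryo were followed from before to after the onset of zygotic transcription. A gene was included when its symbol was made of rab, a number and optional letters and its mean over the 15 libraries reached 1 FPKM. FPKM counts sequenced fragments relative to the length of the transcript and the size of the library, so levels of different genes can be set side by side. Of 23726 genes in the deposited table, 68 had such a symbol and 54 met the minimum. Just inside it lay rab4a, with a mean of 1.26 FPKM, and rab33a, with 1.48 FPKM, and just outside it rab25a, with 0.828 FPKM, and rab34b, with 0.564 FPKM. The symbols describe what they should for 52 members, which encode Rab GTPases. The other 2 share only the name pattern. rab5if encodes a factor named for binding Rab5, known in human cells as part of a machine that inserts membrane proteins at the endoplasmic reticulum (ER), and rab3ip encodes an exchange factor that activates Rab GTPases.

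Rab GTPases are small proteins anchored in membranes by prenyl groups, and each marks a compartment of the secretory or endocytic route. Exchange factors (GEFs) load them with GTP, active Rabs then recruit effectors such as tethers and motor adaptors, and GTPase-activating proteins (GAPs) end the active state, after which GDP dissociation inhibitors take the Rab off the membrane. The cleaving fish embryo lives on RNA and protein loaded into the egg until its own genome is transcribed, and membrane traffic in this period adds cell surface at each division and sets the uptake and recycling of signalling ligands and adhesion proteins.

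Poly(A) RNA of whole dechorionated embryos was measured in 4 genotypes at 3, 4 and 4.5 hours post fertilization (hpf). MZnup133 embryos come from a knockout of nup133, a scaffold gene of the nuclear pore, and Melys embryos from a knockout of elys, which starts pore assembly on chromatin. Tgnup133 embryos carry a transgene that overexpresses nup133. In such names MZ usually stands for maternal-zygotic and M for maternal. By that reading Melys embryos may hold a zygotic copy of elys, so the knockout lines may not be alike in zygotic supply. The labels do not spell this out. Each of these lines had 1 library per stage. Wildtype had 2 libraries per stage, of which 1 served as control for MZnup133 and Tgnup133 (called the nup133 set) and 1 as control for Melys (the elys set). Wildtype columns do not name their set, which was read from the leading number they share with the columns of the other lines. The alleles, the promoter of the transgene, the strain background, the number of embryos pooled and the clutches are not stated in the labels, so p-values measure only the spread between these libraries.

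The label of MZnup133 could be checked on its targeted gene. nup133 stood at 0.431, 0 and 0.208 FPKM at 3, 4 and 4.5 hpf in MZnup133 and at 17.98, 18.4 and 16.4 FPKM in Tgnup133, against 12.6, 13.1 and 11.7 FPKM in their wildtype. The elys gene, named ahctf1 in the table, had 13.5, 25.8 and 24.1 FPKM in Melys and 18.7, 26.8 and 19.5 FPKM in its wildtype, so its RNA does not check that label. Read counts were not analysed here, the depth behind each value is unknown, and no counting interval is given. Summed FPKM ranged from 508714.6 to 575118.3 per library. Of this sum, rab genes made up 0.359% to 0.374% in MZnup133, 0.342% to 0.363% in Melys and 0.249% to 0.331% in Tgnup133, against 0.264% to 0.335% in the nup133-set wildtype and 0.306% to 0.365% in the elys-set wildtype. Mitochondrially encoded RNA moved with the lines as well, at 5.1% to 6.53% in MZnup133 and 4.76% to 5.31% in Melys, against 7.29% to 10.2% in wildtype libraries. Its part in the results below was not tested. Early blastoderm markers (nanog, pou5f3, sox19b, eomesa, tbx16 and noto) summed to 1979 to 2611 FPKM over all libraries, with nanog the largest, and 4 adult tissue genes to at most 9.71 FPKM.

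The members, chosen by their level in these same libraries, fell into every role class used here. The median member had a mean of 21.7 FPKM, 15 members averaged at least 50 FPKM, 23 between 10 and 50 FPKM, and 16 below 10 FPKM. Between 49 and 54 members per library exceeded 1 FPKM, a count that the minimum of 1 FPKM largely sets. The 14 symbols below the minimum were given no class. The classes were early and recycling endosomes with 17 members, ER and Golgi with 14, secretion, cell surface and cilium with 11, and late endosomes, lysosomes and related organelles with 10. Classes follow roles known mainly from mammalian cells and yeast.

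**Figure D1:**
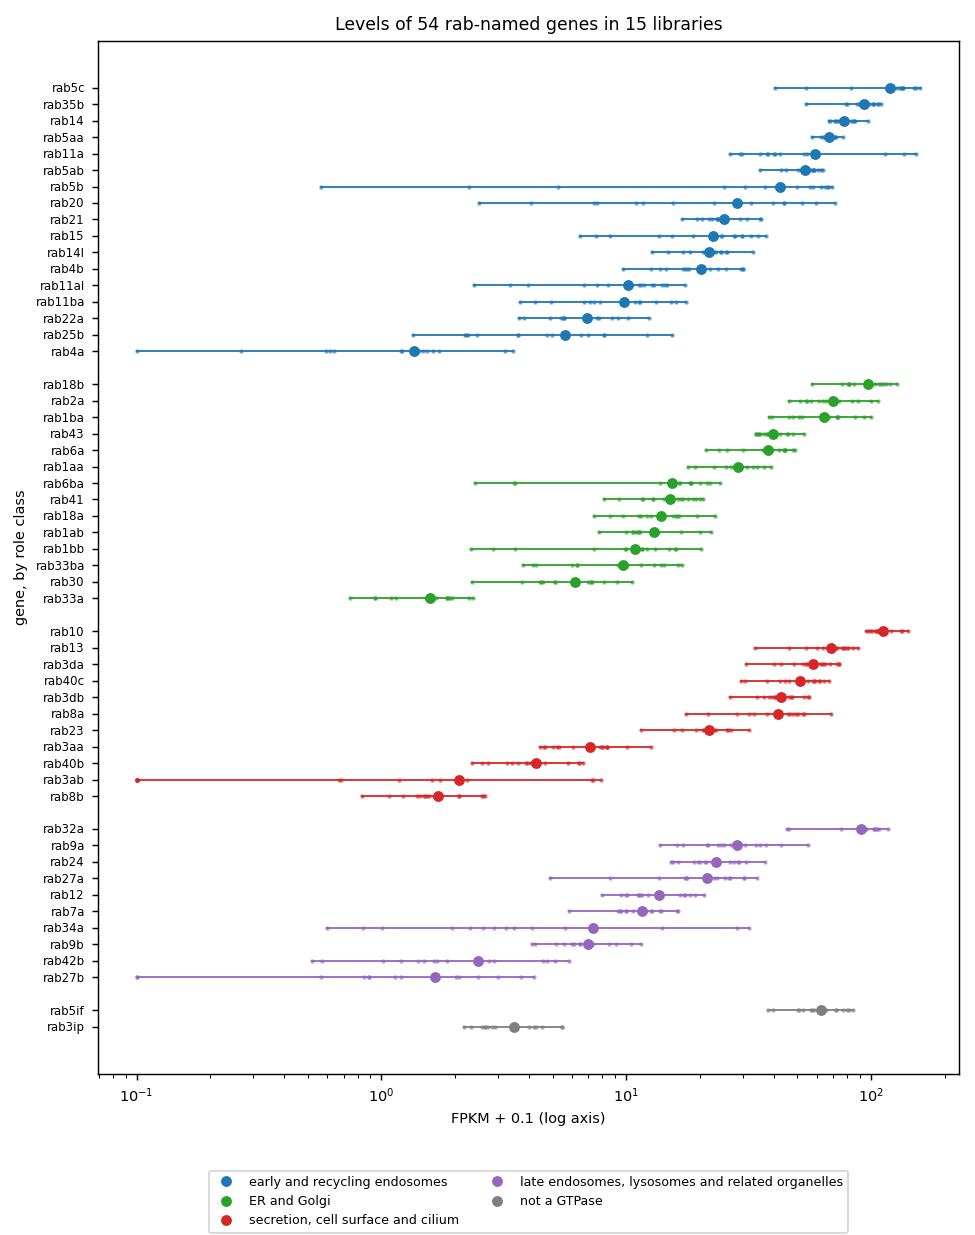
FPKM of the 54 rab-named genes on a log axis after adding 0.1, grouped by role class. Small points are the 15 libraries, the line spans them and the large point is their mean, from 119.6 FPKM for rab5c down to 1.26 FPKM for rab4a. Points at the left edge are libraries listed at 0, as for rab3ab in all 6 wildtype libraries.

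The leading endosomal gene was rab5c (ENSDARG00000026712), which encodes a Rab of early endosome fusion. It had 135, 153 and 131 FPKM at 3, 4 and 4.5 hpf in MZnup133, 159, 134 and 149 FPKM in Melys and 128, 124 and 40.5 FPKM in Tgnup133, against 132, 121 and 54.1 FPKM in nup133-set wildtype and 135, 116 and 82.6 FPKM in elys-set wildtype. Low values were confined to the wildtype and Tgnup133 libraries at 4.5 hpf. The leading gene of secretion was rab10 (ENSDARG00000046106), known in mammals for exocytosis and basolateral traffic. It had 108, 99.5 and 120.5 FPKM in MZnup133, 94.9, 97.2 and 113 FPKM in Melys and 101, 133 and 132 FPKM in Tgnup133, against 106, 110.4 and 141 FPKM in nup133-set wildtype and 106, 104 and 106 FPKM in elys-set wildtype. The ranges of all groups overlapped, and the highest library exceeded the lowest by 1.49-fold. The leading ER gene was rab18b (ENSDARG00000098344), of a Rab found on the ER and on lipid droplets. Its levels were 128, 119.6 and 84.8 FPKM in MZnup133, 99.3, 110.0 and 75.8 FPKM in Melys and 100.3, 81.3 and 57.3 FPKM in Tgnup133, against 112, 107 and 80.4 FPKM in nup133-set wildtype and 116, 104 and 81.1 FPKM in elys-set wildtype. It was lowest at 4.5 hpf in every group. The leading gene of the late endosomal and lysosomal class was rab32a (ENSDARG00000029036), of a Rab of lysosome-related organelles such as melanosomes, at 89.3, 46.01 and 45.1 FPKM in MZnup133, 108, 106 and 117 FPKM in Melys and 94.3, 105 and 90.8 FPKM in Tgnup133, against 103, 92.5 and 75.3 FPKM in nup133-set wildtype and 103, 89.8 and 95.4 FPKM in elys-set wildtype. The MZnup133 libraries at 4 and 4.5 hpf stood below all others. In order of mean level, rab5c, rab10, rab18b, rab35b and rab32a were followed by rab14 and rab2a, and the library ranges of all 7 overlapped.

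The steadiest members over the 15 libraries were rab5aa, with a ratio of highest to lowest library of 1.34, rab14 with 1.45, rab10 with 1.49, rab43 with 1.57 and rab5ab with 1.8. Among members averaging at least 10 FPKM, the widest ratios belonged to rab5b at 148, rab20 at 29.6, rab6ba at 10.4, rab1bb at 8.99 and rab11al at 7.57. For rab5b, rab6ba and rab1bb the low libraries were all of 1 line, whereas rab20 and rab11al were lowest at 4.5 hpf.

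In wildtype embryos more rab genes fell than rose between 3 and 4.5 hpf, as did more of all genes. Over the 2 wildtype sets, 12 of 54 members fell and 4 rose. The test was a limma fit on log2(FPKM + 1) with Benjamini-Hochberg adjustment over 13493 genes and a threshold of 0.05. The 4 include rab4a, whose rise was partly built into its selection and is not read as a test. Across all genes tested, 37% passed, 14.1% higher and 22.8% lower, so the 22.2% of members that fell lay near the share of all genes. The median log2 difference was -0.07 over the members and -0.16 over all genes. Early and recycling endosomes contributed 5 of the members that fell and 2 of those that rose, ER and Golgi 3 and 1, secretion 3 and 0, and the late endosomal class 1 and 1. Median-ratio scaling set the median over all genes at 0.07 and gave 10 higher and 9 lower members, and rab18b, rab13 and rab27a no longer passed. In these bulk samples fewer cells of a type and less RNA per cell cannot be told apart.

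Among endosomal Rabs, rab20 (ENSDARG00000005049) declined most. It had 43.98, 10.8 and 4.0 FPKM at 3, 4 and 4.5 hpf in the nup133 set and 39.5, 15.4 and 7.3 FPKM in the elys set. Both sets dropped at each step without overlap between stages, and rab20 fell by 2.73 ± 0.25 (log2, SE) with a limma adjusted p of 0.00448. rab15, of a recycling endosome Rab studied in mammalian neurons, had 27.7, 13.5 and 6.36 FPKM in the nup133 set and 29.7, 15.3 and 8.46 FPKM in the elys set. It too dropped at each step, by 1.83 ± 0.14 in all (limma adjusted p 0.00329). rab11al, a relative of the recycling endosome gene rab11a, had 11.2, 6.64 and 3.25 FPKM and 13.8, 11.4 and 3.85 FPKM in the 2 sets, lower at each later stage, and fell by 1.56 ± 0.22 (limma adjusted p 0.0102). rab5c, with the values above, lost more after 4 hpf than before it in both sets, and fell by 0.99 ± 0.19 (limma adjusted p 0.0205). rab4b, of fast recycling from early endosomes, had 25.4, 17.9 and 13.6 FPKM and 29.9, 17.6 and 17.04 FPKM, lower at 4 and 4.5 hpf than at 3 hpf in both sets, and fell by 0.82 ± 0.15 (limma adjusted p 0.0204).

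Among the Golgi Rabs, rab33ba, whose mammalian relative acts at the Golgi and in autophagy, had 9.66, 6.21 and 3.69 FPKM in the nup133 set and 12.8, 9.15 and 4.17 FPKM in the elys set. It was lower at each later stage and fell by 1.3 ± 0.20 (limma adjusted p 0.0125). rab6a, which directs traffic within the Golgi and back to the ER, had 48.04, 44.3 and 25.6 FPKM and 39.3, 44.4 and 23.9 FPKM, was low only at 4.5 hpf in both sets, and fell by 0.79 ± 0.12 (limma adjusted p 0.0123). rab18b fell by 0.49 ± 0.078 (limma adjusted p 0.0134), also mostly after 4 hpf. The single Golgi-class member that rose was rab41, with 9.22, 17.7 and 17.0 FPKM and 12.7, 19.2 and 19.9 FPKM in the 2 sets. Both sets were already near their 4.5 hpf level at 4 hpf, and rab41 rose by 0.71 ± 0.17 (limma adjusted p 0.0339).

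Of the secretory Rabs, rab8a, which carries cargo from the Golgi to the plasma membrane and the cilium, had 50.4, 41.7 and 17.5 FPKM in the nup133 set and 52.7, 37.4 and 28.3 FPKM in the elys set and fell by 1.18 ± 0.23 (limma adjusted p 0.0212). rab40c, of a Rab with a SOCS box that works in a ubiquitin ligase, had 52.2, 44.3 and 29.4 FPKM and 67.5, 57.96 and 37.5 FPKM and fell by 0.82 ± 0.091 (limma adjusted p 0.00603). rab13, known at tight junctions of mammalian epithelia, had 80.5, 77.2 and 46.2 FPKM and 77.2, 67.2 and 54.2 FPKM and fell by 0.65 ± 0.13 (limma adjusted p 0.0251). All 3 were lowest at 4.5 hpf in both sets, and no 4.5 hpf library reached the level of a 3 hpf library. rab27a, which in mammals moves lysosome-related organelles to the cell surface, had 25.3, 17.2 and 4.76 FPKM and 22.7, 23.4 and 13.6 FPKM. Its sets parted at 4.5 hpf, and it fell by 1.45 ± 0.38 (limma adjusted p 0.0464).

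The steepest gain of all was that of rab34a (ENSDARG00000045628), whose mammalian relative positions lysosomes and helps build cilia. It was near the lowest members at 3 hpf, with 0.744, 5.52 and 28.2 FPKM at 3, 4 and 4.5 hpf in the nup133 set and 0.908, 2.51 and 13.9 FPKM in the elys set. It climbed at each step in both sets and rose by 3.52 ± 0.37 (limma adjusted p 0.00548). rab11a (ENSDARG00000041450), of slow recycling through recycling endosomes, had 26.6, 35.1 and 42.6 FPKM and 37.4, 54.8 and 58.3 FPKM, higher at each later stage, and rose by 0.64 ± 0.10 (limma adjusted p 0.0129). rab4a, the low relative of rab4b, had 0.494, 1.23 and 3.35 FPKM and 1.43, 1.11 and 3.09 FPKM. It was highest at 4.5 hpf in both sets, with a fitted difference of 1.15 ± 0.31. Without its wildtype libraries at 4.5 hpf rab4a would not have met the minimum mean. A rise was thus partly built into its selection and is not read as a test. Between 3 and 4.5 hpf the values of the rab4 pair went in opposite directions, with rab4b still the higher of the pair at 4.5 hpf.

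None of the 16 called members overlapped between 4.5 and 3 hpf. In all, 16 members had both 4.5 hpf libraries above both 3 hpf libraries and 21 had both below, called or not, or 29.6% and 38.9% beside 26.9% and 40.8% of all genes, of which 37% passed the test. Within the sets, the 12 members that fell had median differences of -1.23 in the nup133 set and -0.80 in the elys set, and all 12 were negative in both. Most calls rest on having both wildtype libraries of a stage. With the nup133-set library at 3 hpf left out 3 members passed, with the elys-set one at 3 hpf 6, with the nup133-set one at 4.5 hpf 4 and with the elys-set one at 4.5 hpf 9. rab20 and rab15 passed in each of these 4 fits, with limma adjusted p-values of 0.0223 to 0.0411, and rab34a failed only with the nup133-set library at 4.5 hpf left out (limma adjusted p 0.0547). The difference of rab27a was -0.84 without that library, and that of rab4a 0.75 with the nup133-set library at 3 hpf left out.

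**Figure D2:**
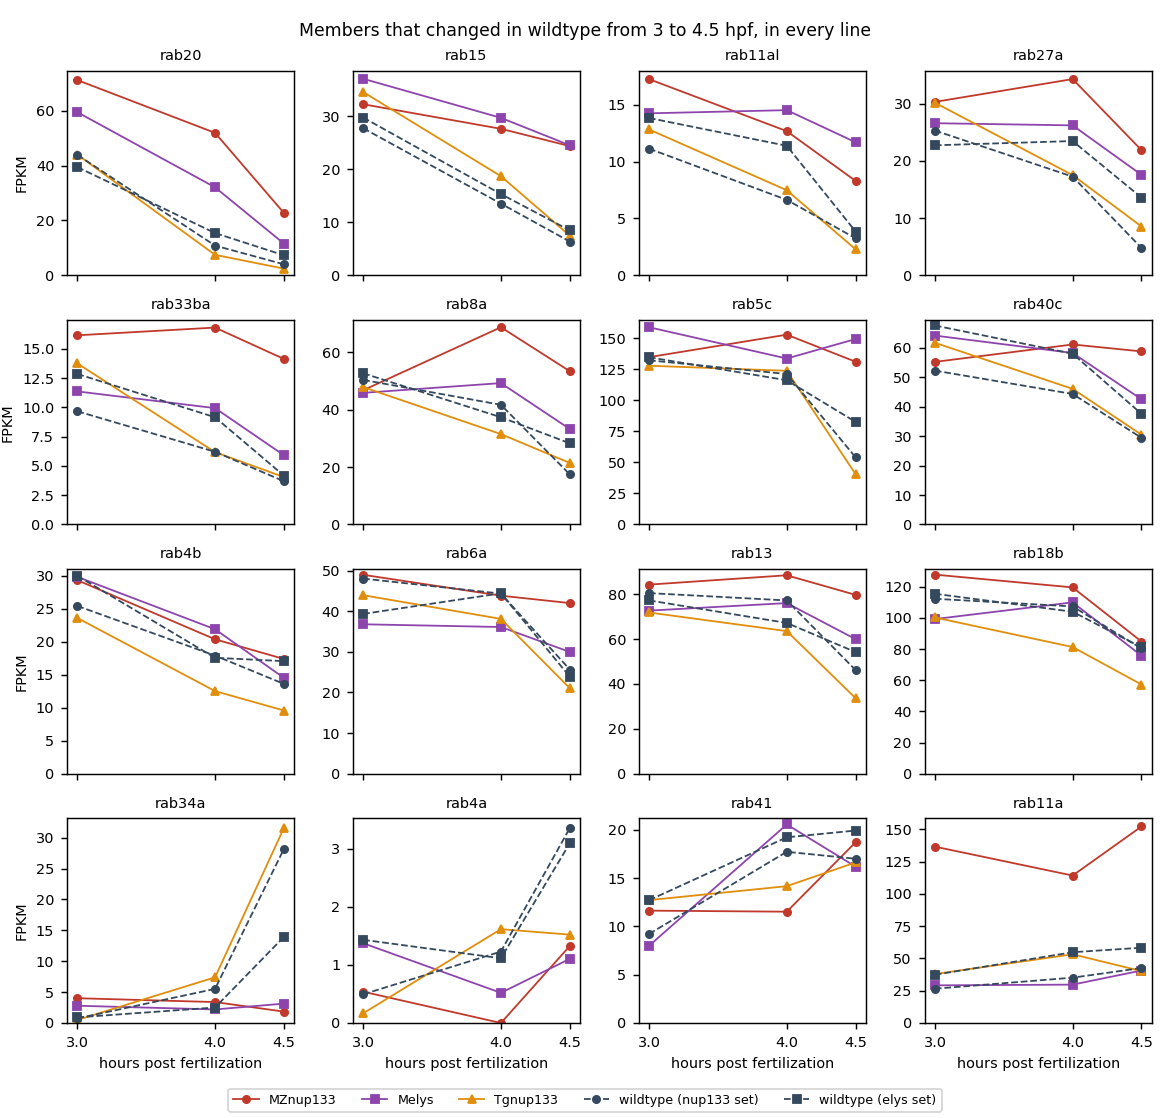
FPKM of the 16 members that fell or rose in wildtype, against hours post fertilization, 1 panel per gene with its own axis. Among them, the rise of rab4a was partly built into its selection and is not read as a test. Solid lines are MZnup133, Melys and Tgnup133, dashed lines the 2 wildtype sets, and each point is 1 library. rab20 was at 22.8 FPKM in MZnup133 and 11.6 FPKM in Melys at 4.5 hpf, against 4.00 FPKM and 7.30 FPKM in their wildtype libraries.

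In MZnup133 embryos 6 members rose and 5 fell against the matched wildtype over 3 stages, in a limma fit with 1 effect per line. Of all genes tested 22% passed, 13.7% higher and 8.32% lower, and of the members 11.1% were higher and 9.26% lower. The median log2 difference was 0.24 over the members and 0.15 over all genes. Median-ratio scaling set the median over all genes at -0.015, retained all 11 calls and gave 6 higher and 7 lower members. Each of the 11 lay on its side of the wildtype at 3 of 3 stages. Since a line had 1 library a stage, the stages stand in for replicates, and an effect that grows with time enters the error.

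The largest gain on the log2 scale was that of rab11a. It had 137, 114 and 152 FPKM at 3, 4 and 4.5 hpf in MZnup133, against 26.6, 35.1 and 42.6 FPKM in its wildtype and 37.4, 54.8 and 58.3 FPKM in the elys-set wildtype. All 3 MZnup133 libraries stood above every other library of the series, already at 3 hpf, and rab11a rose by 1.94 ± 0.19 (log2, SE; limma adjusted p 0.000187). rab20 had 71.3, 52.01 and 22.8 FPKM in MZnup133, against 43.98, 10.8 and 4.0 FPKM in its wildtype. It was lower at each later stage in both genotypes and higher in MZnup133 at every stage, by 1.7 ± 0.35 (limma adjusted p 0.0101). rab33ba had 16.1, 16.8 and 14.1 FPKM in MZnup133, against 9.66, 6.21 and 3.69 FPKM in wildtype, and rose by 1.23 ± 0.27 (limma adjusted p 0.0129). Its MZnup133 libraries changed little with stage and stood above all 6 wildtype libraries. rab27a had 30.3, 34.3 and 21.9 FPKM in MZnup133, against 25.3, 17.2 and 4.76 FPKM in wildtype, with overlap between the groups and the widest gap at 4.5 hpf, and rose by 1.06 ± 0.28 (limma adjusted p 0.0257).

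rab9a, whose product returns receptors from late endosomes to the Golgi, had 37.2, 55.2 and 42.7 FPKM in MZnup133, against 21.3, 26.8 and 24.2 FPKM in its wildtype. All MZnup133 values exceeded all 6 wildtype values, although the elys-set wildtype reached 34.99 FPKM at 3 hpf, and rab9a rose by 0.86 ± 0.22 (limma adjusted p 0.0225). rab5if, which is no GTPase, had 76.9, 79.99 and 71.9 FPKM in MZnup133, against 50.9, 37.8 and 39.8 FPKM in its wildtype, and rose by 0.83 ± 0.12 (limma adjusted p 0.00175). The elys-set wildtype had 71.8, 57.4 and 58.6 FPKM, so at 3 hpf MZnup133 exceeded this other wildtype by little.

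Of the 5 members that fell in MZnup133, 3 were ER and Golgi Rabs. rab6ba (ENSDARG00000034522), a Golgi Rab, had 2.32, 3.38 and 3.42 FPKM in MZnup133, against 18.3, 24.2 and 21.8 FPKM in its wildtype and 15.5, 15.3 and 19.9 FPKM in the elys set. The groups were far apart at each stage, and rab6ba fell by 2.48 ± 0.16 (limma adjusted p 1.71e-05). rab1bb (ENSDARG00000056479), of the Rab1 group that drives transport from the ER to the Golgi, had 2.75, 2.23 and 3.42 FPKM in MZnup133, against 9.79, 15.8 and 20.04 FPKM in wildtype, and fell by 2.05 ± 0.23 (limma adjusted p 0.000416). rab1ba (ENSDARG00000058044), the more abundant gene of this pair, had 39.3, 47.8 and 52.2 FPKM in MZnup133, against 72.8, 72.8 and 67.02 FPKM in wildtype, and fell by 0.61 ± 0.12 (limma adjusted p 0.00898). Neither rab1 gene overlapped between MZnup133 and any of the 6 wildtype libraries.

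Outside the Golgi, rab3da, of the Rab3 group of regulated exocytosis, had 40.05, 30.7 and 42.7 FPKM in MZnup133, against 54.1, 73.8 and 67.8 FPKM in wildtype, with no overlap, and fell by 0.77 ± 0.15 (limma adjusted p 0.00813). rab32a was close to wildtype at 3 hpf and far below at 4 and 4.5 hpf, with the values above, and fell by 0.64 ± 0.18 (limma adjusted p 0.0345). By class, 15 of 17 early and recycling endosome members had a positive difference, with a median of 0.44 and 2 called, whereas 6 of 14 ER and Golgi members were positive, with a median of -0.06, 1 called higher and 3 lower. Over all genes 8040 of 13493 were positive.

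Calls of rab11a and rab6ba held without any 1 stage, with limma adjusted p-values of 0.00483 to 0.0135 for rab11a and 0.00156 to 0.015 for rab6ba. Without the 4 hpf libraries only these 2 members passed, and the other 9 had limma adjusted p-values of 0.0527 to 0.315. Without the 4.5 hpf libraries rab1bb, rab1ba and rab5if also passed, 1 member was newly called, and the difference of rab27a was 0.60. Without the 3 hpf libraries all 11 passed, with 14 members called in all.

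Most enveloping layer markers were lower in MZnup133 too. Of 8 such genes, 7 were below wildtype at 4.5 hpf and 4 at all 3 stages, and krt5 and cldnf were listed at 0 at 4.5 hpf. The sum of the 8 was 422, 416 and 582 FPKM in MZnup133, against 849.9, 768 and 1311 FPKM in wildtype, most of it epcam. The other gene, grhl3, went the opposite way at all 3 stages. It had 0.741, 28.2 and 142.7 FPKM in MZnup133, against 0, 13.8 and 21.4 FPKM in wildtype. All 5 yolk syncytial layer markers were below wildtype at 4.5 hpf, with sums of 21.8 FPKM in MZnup133 and 164 FPKM in wildtype and hnf4a and slc26a1 listed at 0 in MZnup133. All 6 oocyte markers were above wildtype at 4.5 hpf, with sums of 250.6 FPKM in MZnup133 and 109 FPKM in wildtype. Blastoderm genes moved in both directions beneath their steady sum: at 4.5 hpf sox19b had 224 FPKM in MZnup133 and 43.7 FPKM in wildtype and eomesa 175 and 56.6 FPKM, whereas tbx16 had 19.02 FPKM in MZnup133 and 199 FPKM in wildtype and noto 21.9 and 146 FPKM. The part of these differences in the rab values was not tested.

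**Figure D3:**
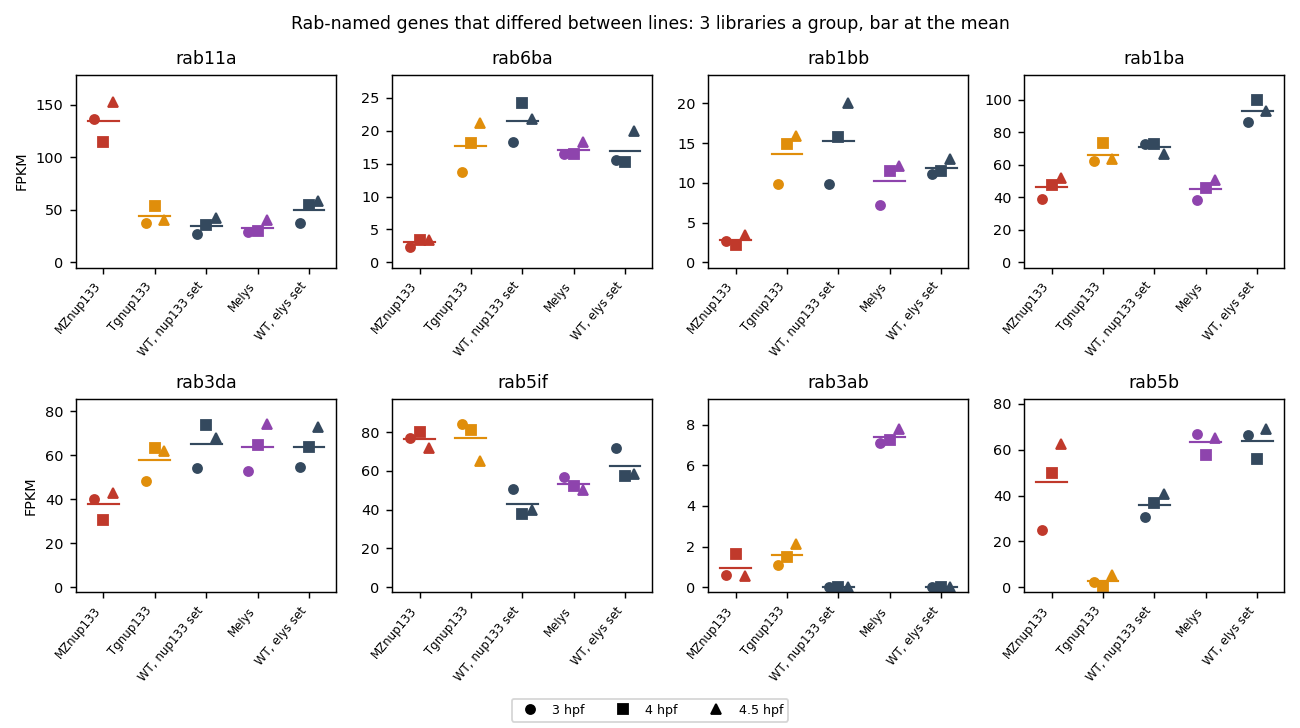
FPKM of 8 members that differed in at least 1 line, with the 3 libraries of each group as points (circle 3, square 4, triangle 4.5 hpf) and a bar at their mean, on linear axes. rab11a, rab6ba, rab1bb and rab3da set MZnup133 apart, rab1ba both knockout lines, rab3ab Melys and rab5b Tgnup133. rab3ab met the minimum only through the libraries in which it was high, so its difference is not read as a test.

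In Melys embryos few members were called, a small count that is not read as a trait of rab genes as a group. Over 3 stages 2 members fell and 1 was called higher. That 1 was rab3ab, whose selection fixed its direction, and no other member was called higher. Of all genes tested 10.1% passed, 5.48% higher and 4.65% lower, against 1.85% and 3.7% of the members, and the median log2 difference was 0.03 over the members and 0.07 over all genes. With equal FPKM sums the split was 2 higher and 1 lower. rab1ba had 38.3, 46.1 and 50.5 FPKM at 3, 4 and 4.5 hpf in Melys, against 86.2, 100.2 and 93.2 FPKM in its wildtype. Every Melys library stood below every wildtype library of both sets, and rab1ba fell by 1.04 ± 0.12 (log2, SE; limma adjusted p 0.000891). rab43, a Golgi Rab, had 34.6, 33.8 and 33.97 FPKM in Melys, against 47.96, 53.2 and 45.2 FPKM in its wildtype, and fell by 0.5 ± 0.12 (limma adjusted p 0.0305). The nup133-set wildtype, with 38.7, 45.9 and 38.1 FPKM, was also above Melys. Without the 4 hpf libraries the limma adjusted p of rab1ba was 0.0922, and that of rab43 was 0.0903 to 0.331 without any 1 stage. The 8 enveloping layer markers summed to 724, 703 and 864 FPKM in Melys, against 809, 767 and 1157 FPKM in its wildtype, with 6 of 8 lower and krt5 listed at 0 in Melys at 4.5 hpf. Those not lower at 4.5 hpf were grhl3, with 21.3 FPKM in Melys and 14.2 FPKM in wildtype, and epcam, with 705 and 701 FPKM. At that stage 4 of 5 yolk syncytial layer markers were lower, with sums of 79.7 FPKM in Melys and 140.1 FPKM in wildtype, and 4 of 6 oocyte markers higher, with sums of 189 FPKM in Melys and 118 FPKM in wildtype. The part of these markers in the rab values was not tested.

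The member called higher in Melys was rab3ab (ENSDARG00000043835), of the Rab3 group of synaptic and secretory vesicles. It had 7.12, 7.25 and 7.79 FPKM in Melys, 0.587, 1.63 and 0.569 FPKM in MZnup133 and 1.08, 1.5 and 2.14 FPKM in Tgnup133, while each of the 6 wildtype libraries listed it at 0. The 3 Melys libraries were the highest of the series, and those of the other lines were low but above 0. An exact 0 can be a failed estimate, so no fold is given. rab3ab is also the single member whose wildtype mean is below 1 FPKM. It met the minimum only through the libraries in which it was high, so a difference from wildtype was built into its selection, and no test of it is given. Its relative rab3aa did not pass in any comparison.

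Tgnup133 embryos differed in 2 members, where 1.95% of all genes passed, 0.8% higher and 1.15% lower. The median log2 difference was -0.05 over the members and -0.04 over all genes. rab5b (ENSDARG00000016059), an early endosome gene, had 2.19, 0.466 and 5.18 FPKM in Tgnup133, against 30.4, 36.7 and 40.8 FPKM in its wildtype. MZnup133, which shares this wildtype, had 24.97, 49.9 and 62.5 FPKM, and the elys-set wildtype 66.4, 56.1 and 69.1 FPKM. Only the Tgnup133 libraries were near 0, and rab5b fell by 3.58 ± 0.36 (log2, SE; limma adjusted p 0.00125). The wildtype sets did not overlap either, the elys set being higher at each stage. rab5if had 84.5, 81.1 and 65.3 FPKM in Tgnup133, against 50.9, 37.8 and 39.8 FPKM in its wildtype, and rose by 0.83 ± 0.12 (limma adjusted p 0.0076). Its Tgnup133 libraries overlapped with the 71.8, 57.4 and 58.6 FPKM of the elys-set wildtype. Without the 4 or 4.5 hpf libraries the limma adjusted p of rab5b was 0.0694 or 0.0616, and that of rab5if was 0.0528 to 0.358 without any 1 stage. MZnup133 and Tgnup133 share their wildtype libraries, so the like difference of rab5if in both is not independent. The enveloping layer markers summed to 1049, 1102 and 1668 FPKM in Tgnup133, with 7 of 8 above wildtype at 4.5 hpf. The other, grhl3, had 0.425 FPKM in Tgnup133 and 21.4 FPKM in wildtype at 4.5 hpf. The part of these markers was not tested either.

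The effects of the 2 knockouts differed from each other in a few members. In the test of the MZnup133 difference minus the Melys difference, 2 members were higher and 3 lower, the 3 including rab3ab, which was selected through its Melys libraries and is not read as a test. Here 5.27% of all genes passed, 2.76% higher and 2.51% lower, beside 3.7% and 5.56% of the members with rab3ab counted. These are small counts and are not read as a trait of rab genes as a group. The median was 0.19 over the members and 0.075 over all genes. rab11a differed most, by 2.51 ± 0.26 (limma adjusted p 0.00061), with a gain in MZnup133 beside values of 29.2, 29.7 and 40.6 FPKM in Melys and 37.4, 54.8 and 58.3 FPKM in its wildtype. The Melys difference itself, -0.57 ± 0.19, did not pass (limma adjusted p 0.084). rab6ba differed by -2.5 ± 0.23 (limma adjusted p 0.000248), having 16.4, 16.4 and 18.3 FPKM in Melys and 15.5, 15.3 and 19.9 FPKM in its wildtype, which overlapped. rab1bb differed by -1.84 ± 0.32 (limma adjusted p 0.0101), with 7.27, 11.5 and 12.1 FPKM in Melys and 11.2, 11.4 and 13.0 FPKM in wildtype. rab5if differed by 1.05 ± 0.17 (limma adjusted p 0.00675), having 56.9, 52.5 and 50.3 FPKM in Melys, below its wildtype at each stage. The gap between the wildtype sets is part of this 1.05. For rab5if the elys-set wildtype exceeded the nup133-set wildtype by 0.49, 0.59 and 0.55 (log2) at 3, 4 and 4.5 hpf. Only rab11a passed without any 1 stage, with limma adjusted p-values of 0.0148 to 0.0403, and rab6ba failed without the 4 hpf libraries (0.0669). rab1bb had limma adjusted p-values of 0.31 without the 4 hpf and 0.187 without the 4.5 hpf libraries, and rab5if 0.185 and 0.112. For rab1ba, lower in both knockouts, the effects differed by 0.43 ± 0.17 and did not pass (limma adjusted p 0.211). Its levels in the knockouts were close, at 39.3, 47.8 and 52.2 FPKM in MZnup133 and 38.3, 46.1 and 50.5 FPKM in Melys. The elys-set wildtype exceeded the nup133-set wildtype by 0.24, 0.46 and 0.47 (log2) at the 3 stages.

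At 4.5 hpf alone, a comparison added after the values were seen, MZnup133 is a single library. It was assumed to vary as the wildtype libraries do. Their 2 residual degrees of freedom, together with 2.36 prior ones estimated over all genes, supply every SE and p here. On that footing 11 members were higher and 5 lower in MZnup133, where 21.5% of all genes passed, 13.5% higher and 8% lower. The median log2 difference was 0.34 over the members and 0.26 over all genes. Median-ratio scaling set the median over all genes at -0.004 and gave 6 higher and 6 lower members. The fit removes the average gap between the wildtype sets, so its differences are not simple ratios to 1 library. Beyond the members called over 3 stages, those higher were rab15 with 1.71 ± 0.19, rab8a with 1.32 ± 0.29, rab11al with 1.23 ± 0.29, rab5c with 1.06 ± 0.24, rab23 with 1.02 ± 0.21, rab40c with 0.98 ± 0.12 and rab6a with 0.68 ± 0.16. rab23, the one of these not called in wildtype over time, encodes an inhibitor of Hedgehog signalling. It had 25.9 FPKM in MZnup133 at 4.5 hpf, against 11.4 FPKM in the nup133-set and 16.7 FPKM in the elys-set wildtype. rab15 had 24.3 FPKM in MZnup133, against 6.36 and 8.46 FPKM in these wildtype libraries, and rab8a 53.4 FPKM, against 17.5 and 28.3 FPKM. In the other direction, rab34a had 1.84 FPKM in MZnup133, against 28.2 FPKM in wildtype, a difference of -3.16 ± 0.48 (limma adjusted p 0.0268, with the spread taken from wildtype). These calls rest on all wildtype libraries. Without either 4.5 hpf wildtype library 0 members passed, with limma adjusted p-values of 0.0509 to 0.188, and 0 of 13493 genes did. Without that of the nup133 set rab5c differed by 0.64 and rab8a by 0.85. In Melys at 4.5 hpf 0 members passed by limma, 8 had an unadjusted p below 0.05, and 0.104% of all genes passed, 0.0296% higher and 0.0741% lower.

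rab34a shows the course in each line. It had 4.01, 3.39 and 1.84 FPKM at 3, 4 and 4.5 hpf in MZnup133, 2.79, 2.19 and 3.14 FPKM in Melys and 0.5, 7.39 and 31.6 FPKM in Tgnup133, against 0.744, 5.52 and 28.2 FPKM in the nup133-set wildtype and 0.908, 2.51 and 13.9 FPKM in the elys-set wildtype. Both knockouts were above their wildtype at 3 hpf and far below it at 4.5 hpf, and Tgnup133 followed wildtype. Over 3 stages these opposite signs gave MZnup133 a difference of -0.8 ± 0.89, which did not pass (limma adjusted p 0.527). In Melys at 4.5 hpf the difference of -1.47 ± 0.64 did not pass (limma adjusted p 0.29).

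The 12 members that fell in wildtype changed by a median of -0.30 on the log2 scale between 3 and 4.5 hpf within MZnup133, by -0.51 within Melys and by -1.38 within Tgnup133, against -1.23 in the nup133-set wildtype and -0.80 in the elys-set wildtype. At 4.5 hpf 12 of them were above their own wildtype library in MZnup133, 10 in Melys and 5 in Tgnup133. For all 54 members these counts were 37, 31 and 22. Since the wildtype libraries that chose these members are also the controls, these values are a description and carry no test.

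To set the time course against the lines without shared libraries, the differences of MZnup133 were compared with the change in the elys-set wildtype and those of Melys with the change in the nup133-set wildtype. Over the 54 members the Pearson correlation between the MZnup133 difference and the wildtype change between 3 and 4.5 hpf was 0.09 at 3 hpf, -0.35 at 4 hpf and -0.72 at 4.5 hpf (Spearman -0.02, -0.31 and -0.66). Over all 13493 genes it was -0.02, -0.44 and -0.48. For Melys it was -0.01, -0.29 and -0.43 over the members and -0.01, -0.31 and -0.40 over all genes, and for Tgnup133, against the elys set, 0.01, 0.14 and 0.02 over the members. At 4.5 hpf the MZnup133 difference had the opposite sign to the wildtype change for 42 of 54 members, or 77.8%, beside 69.6% of all genes. The Melys difference had it for 35, or 64.8%, beside 65.2% of all genes. Genes within a library share its scaling and are not independent, so no p is given.

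**Figure D4:**
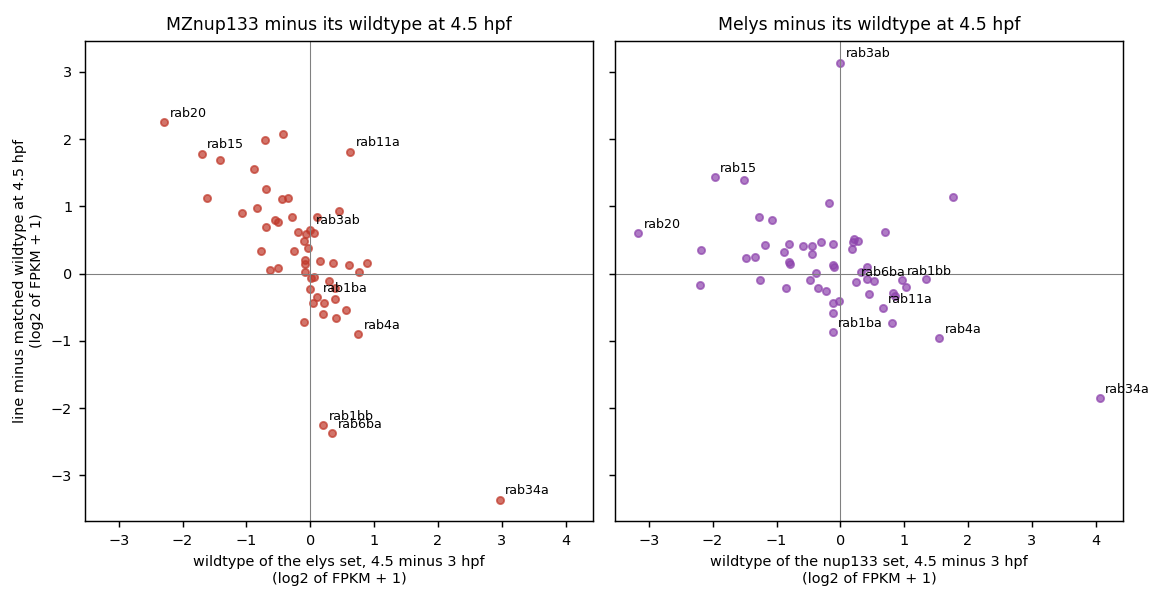
Difference of MZnup133 (left) and Melys (right) from the matched wildtype library at 4.5 hpf, against the change between 3 and 4.5 hpf in the wildtype set that does not serve as that line's control, both on the log2(FPKM + 1) scale, with 1 point per member (54). Pearson correlations were -0.72 for MZnup133 and -0.43 for Melys.

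Gene families spread their RNA unevenly over copies. The rab1 family of 4 genes summed to 91.5, 99.96 and 96.9 FPKM in MZnup133, against 123, 133 and 134 FPKM in its wildtype, and to 74.4, 95.7 and 98.4 FPKM in Melys, against 126, 149.7 and 154 FPKM in its wildtype. rab1aa, with 36.5, 38.8 and 27.9 FPKM in MZnup133 and 29.7, 33.99 and 27.5 FPKM in wildtype, and rab1ab, with 13.03, 11.2 and 13.4 FPKM and 10.6, 10.6 and 19.9 FPKM, did not pass in any line. The rab5 family of 4 summed to 235, 243.5 and 155 FPKM in Tgnup133, against 272, 276 and 219.5 FPKM in wildtype, with rab5aa at 70.02, 64.1 and 57.4 FPKM in Tgnup133 and 66.6, 67.3 and 62.2 FPKM in wildtype. The rab6 pair summed to 51.3, 47.2 and 45.4 FPKM in MZnup133, against 66.4, 68.5 and 47.5 FPKM in wildtype, while rab6bb, below the minimum, averaged 0.0959 FPKM. The rab11 family of 3 summed to 161, 134 and 171 FPKM in MZnup133, against 41.8, 46.6 and 55.4 FPKM in wildtype, and most of it was rab11a. Family sums were not tested. Where copies are nearly identical, the authors' estimation could have divided shared reads between them, so values of single copies are uncertain.

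Leaving aside the comparison at 4.5 hpf alone, in which rab23 was called higher in MZnup133, 5 others remain. These are wildtype over time, each line over 3 stages, and the difference between the knockouts. In at least 1 of them 26 members were called, rab3ab and rab4a included, and 28 in none. The 28 were rab14, rab14l, rab21, rab22a, rab25b, rab35b, rab5aa, rab5ab and rab11ba among endosomal Rabs, rab1aa, rab1ab, rab2a, rab18a, rab30 and rab33a in the ER and Golgi class, rab3aa, rab3db, rab8b, rab10, rab23 and rab40b in the secretory class, rab7a, rab9b, rab12, rab24, rab27b and rab42b in the late endosomal class, and rab3ip. Their fitted log2 differences ranged from -1.64 (rab42b) to 0.96 (rab11ba) in wildtype over time, from -1.0 (rab42b) to 1.06 (rab25b) in MZnup133, from -0.60 (rab30) to 0.60 (rab24) in Melys and from -0.67 (rab3ip) to 0.88 (rab11ba) in Tgnup133. Some did not overlap with wildtype all the same. rab12, rab3aa and rab22a were above all 6 wildtype libraries in MZnup133, and rab24 was in Melys. rab24, a Rab of autophagy in mammals, had 36.9, 30.8 and 27.6 FPKM in Melys, against 21.1, 20.9 and 19.6 FPKM in wildtype. In MZnup133 8 members lay above all 6 wildtype libraries and 4 below them, or 14.8% and 7.41%, beside 13.1% and 6.76% of all genes. In Melys 3 and 2 did, or 5.56% and 3.7%, beside 9.01% and 5.72% of all genes, and in Tgnup133 1 and 2, or 1.85% and 3.7%, beside 2.65% and 4.34%. By the test, 22%, 10.1% and 1.95% of all genes passed in these lines. rab7a, the central Rab of late endosomes, had 9.87, 13.7 and 13.8 FPKM in MZnup133, against 5.73, 9.35 and 16.1 FPKM in wildtype, and rab35b, of recycling and cytokinesis, 54.3, 87.2 and 90.5 FPKM, against 96.9, 102 and 89.2 FPKM. Both were within the range of the 2 wildtype libraries at 4.5 hpf, and rab35b at 3 hpf in MZnup133 was its lowest value of the series.

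Genes listed as loading, switching off or reading Rabs were counted from 218 symbols, of which 157 were tested as 160 gene identifiers. The list is wider than these roles. The Rab-like genes rabl2, rabl3, rabl6a and rabl6b were counted among effectors and tethers, and rabl3 is among those that rose in Melys. The prenylation class also held fntb of farnesyltransferase. Unlike the members, these genes were not examined under other scalings or with libraries left out, so how far their counts and calls depend on these is unknown. In wildtype, 57 of 160 fell and 6 rose between 3 and 4.5 hpf, or 35.6% and 3.75% against 22.8% and 14.1% of all genes, with a median of -0.57. Of 74 effectors and tethers 25 fell and 0 rose, of 46 GEFs and GEF complex genes 18 and 0, of 31 GAPs 10 and 2, and of 9 prenylation and GDP dissociation genes 4 and 4. The largest changes were those of micall2b, a Rab13 effector in mammals, which fell by 3.84 ± 0.25 to 5.46 and 13.2 FPKM at 4.5 hpf, against 127 and 147 FPKM at 3 hpf, of rab11fip5a, a Rab11 effector, by 2.67 ± 0.26, of the GAP gene rabgap1 by 2.54 ± 0.32, and of hps1, of the Rab32 exchange complex, by 2.5 ± 0.25. Their limma adjusted p-values were 0.00235, 0.00484, 0.00792 and 0.00493.

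In MZnup133, 27 of the 160 rose and 2 fell, or 16.9% and 1.25% beside 13.7% and 8.32% of all genes, with a median of 0.34. Effectors and tethers gave 12 of the 27, prenylation and GDP dissociation 5 of 9, and GEFs and GAPs 5 each. fyco1b, a kinesin adaptor that reads Rab7 in mammals, had 6.67, 6.17 and 8.46 FPKM in MZnup133, against 2.25, 1.69 and 0.756 FPKM in wildtype, and rose by 1.7 ± 0.29 (limma adjusted p 0.00395). vps18, of the tether of late endosomes, had 40.6, 29.9 and 13.4 FPKM, against 25.9, 7.33 and 2.98 FPKM, and rose by 1.46 ± 0.27 (limma adjusted p 0.00572). sytl1, a Rab27 effector, rose by 1.45 ± 0.19 (limma adjusted p 0.00121) and micall1a, a Rab8 effector, by 1.38 ± 0.31 (limma adjusted p 0.0147). All 4 were higher at 3 of 3 stages. The 2 that fell were vps16, of the same late endosomal tether as vps18, with 14.9, 19.3 and 19.9 FPKM in MZnup133, against 33.6, 37.1 and 41.6 FPKM in wildtype, by 1.02 ± 0.12 (limma adjusted p 0.000566), and ankrd27, of an exchange factor for Rab21 in mammals, by 0.89 ± 0.19 (limma adjusted p 0.0108).

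In Melys 9 of the 160 rose and 4 fell, or 5.62% and 2.5% beside 5.48% and 4.65% of all genes, with a median of 0.10 beside 0.07. The GAP gene tbc1d19 had 0.701, 1.57 and 0.812 FPKM in Melys, against 6.48, 7.25 and 7.86 FPKM in its wildtype, and fell by 2.04 ± 0.27 (limma adjusted p 0.00167). rabep1, a Rab5 effector, had 30.4, 26.4 and 12.6 FPKM, against 6.99, 5.82 and 2.99 FPKM, and rose by 1.92 ± 0.24 (limma adjusted p 0.00108). wdr44, a Rab11 effector, fell by 1.2 ± 0.32 (limma adjusted p 0.0413) and plekhm1, a Rab7 effector, rose by 0.93 ± 0.25 (limma adjusted p 0.0461). In Tgnup133 tbc1d19 fell by 1.91 ± 0.27 (limma adjusted p 0.00702), to 1.88, 1.003 and 1.46 FPKM in Tgnup133 against 8.14, 8.96 and 7.32 FPKM in wildtype, and fntb, the beta subunit of farnesyltransferase, rose by 0.85 ± 0.12 (limma adjusted p 0.00834). MZnup133 had 3.26, 4.54 and 5.04 FPKM of tbc1d19, also below its wildtype at each stage. The effects of MZnup133 and Melys differed in 4 of the 160 genes, 3 higher and 1 lower, or 1.88% and 0.625% beside 2.76% and 2.51% of all genes. They were dennd4a by 1.75 ± 0.41, exoc3 by 1.62 ± 0.26, sytl1 by 1.14 ± 0.27 and vps16 by -0.97 ± 0.17, with limma adjusted p-values of 0.0392, 0.00615, 0.0448 and 0.00998.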

How the data were processed

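Poly(A) RNA libraries of whole embryos gave 1 table of FPKM per gene, computed by the authors with Trim Galore, STAR 2.5.3a, Cufflinks 2.2.1 and build GRCz11, per the submitters' processing notes. Their order, options and annotation were not given in the sources used here. Of 23800 lines, 74 repeats were dropped, and 0 per-sample columns were left unused. Tests ran on log2(FPKM + 1) for 13493 genes (mean 1 FPKM or more), with limma 3.58.1 in R 4.3.3, a variance trend, two-sided p-values and Benjamini-Hochberg adjustment over all genes tested. Adding 1 understates changes of low genes. The time fit had a mean for each of 12 combinations of genotype and stage plus a term for the control set, with 2 residual and 2.36 prior degrees of freedom, and also gave the 4.5 hpf differences. The line fit had 6 levels of set and stage and 3 line effects, with 6 residual and 3.52 prior degrees of freedom. Both were run on simulated data with known changes as a check of the code. That simulation held no other stage trend, no gap between control sets and no shared library scaling, so it does not measure how reliable the calls are here. Named are members that passed a comparison, up to 12 per direction, the leading member of each class, paralogues by level, and up to 4 regulators per comparison; a few others (rab24, rab7a, rab35b, rab3aa, vps16, ankrd27) were chosen after their values were seen. The members and lists were chosen with earlier results of these data known. Alternatives were another pseudocount, scaling, filter and prior, no control set term, and leaving out libraries. No coordinates or sequences were used here.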

Additional observations from a re-analysis of the deposited data

Results flagged for a closer look

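The effect of MZnup133 over 3 stages differed from that of Melys, by limma's test of the difference itself, for 4 members. On the log2(FPKM + 1) scale, the MZnup133 difference minus the Melys difference was 2.51 for rab11a, 1.05 for rab5if, -2.50 for rab6ba and -1.84 for rab1bb. Each line was set against its own wildtype set, so any gap between the wildtype sets is part of these values. For rab5if the elys-set wildtype exceeded the nup133-set wildtype by 0.49, 0.59 and 0.55 at 3, 4 and 4.5 hpf. Of all genes tested 5.27% passed this test. rab5if is no GTPase, and only rab11a passed whichever stage was left out. No group had enough libraries to look for a single library far from the others.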

How the results depend on the processing

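The total count of members called stayed within 1.5 times its main value under a pseudocount of 0.1 and both other scalings. The split between higher and lower moved more. In wildtype over time, median-ratio scaling gave more members higher than lower, the reverse of the main fit. No called member changed sign under any alternative. Testing all genes above 0 gave 9 members in wildtype over time (16 as reported), 5 in MZnup133 at 4.5 hpf (16) and 1 in Melys at 4.5 hpf (0). With no variance trend MZnup133 at 4.5 hpf gave 8, and with no control set term MZnup133 gave 9 and Melys 2 at that stage. Leaving out wildtype libraries in turn gave 3 to 9 members in wildtype over time and 0 at 4.5 hpf in MZnup133 and in Melys. Leaving out a stage gave 2 to 14 members in MZnup133 (11), 1 to 2 in Melys (3), 0 to 1 in Tgnup133 (2) and 1 to 5 for the difference between the knockouts (5). Fewer libraries leave fewer degrees of freedom, and a lone library is then assumed to vary like the others. With median-ratio scaling MZnup133 at 4.5 hpf gave 6 higher and 6 lower, and with equal FPKM sums MZnup133 over 3 stages gave 9 higher and 5 lower and Melys 2 higher and 1 lower. These counts include rab3ab in Melys and in the difference between the knockouts. The 16 reported in wildtype over time include rab4a. The labels give no replicate numbers, so no pairing beyond set and stage was possible. The line fit already matches each library to the wildtype of its set and stage. Depth is unknown, so low members such as rab4a cannot be given a counting error.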

Other observations

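The 2 wildtype sets differed from each other in rab genes as well. The median absolute log2 gap between the elys-set and the nup133-set library was 0.249, 0.358 and 0.254 over the members at 3, 4 and 4.5 hpf, and 0.236, 0.271 and 0.318 over all genes tested. Against this, the median absolute difference of MZnup133 from its wildtype was 0.374, 0.444 and 0.611 over the members, beside 0.397, 0.525 and 0.671 over all genes. That of Melys was 0.228, 0.228 and 0.356 over the members, beside 0.367, 0.403 and 0.444. For Tgnup133 it was 0.242, 0.305 and 0.271 over the members, beside 0.272, 0.324 and 0.32. The members lay below all genes in every line and stage.

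Of the 14 rab symbols below the minimum, 8 reached 1 FPKM in at least 1 library, the highest being rab25a, of an epithelial recycling Rab, at 3.80 FPKM in its highest library. The member rab25b had 15.3, 7.995 and 12.1 FPKM at 3, 4 and 4.5 hpf in MZnup133 and 6.87, 4.66 and 2.15 FPKM in Melys, against 6.41, 8.05 and 2.12 FPKM in the nup133-set wildtype and 3.52, 2.1 and 2.35 FPKM in the elys-set wildtype, and passed in no comparison.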
